A study of Homo sapiens with 8 samples.

Results

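Rab proteins are small GTPases that mark the membranes of the secretory and endocytic pathways, and 49 of their genes are described here across total ribosomes and ribosomes bound by the chaperonin TRiC or by its partner prefoldin (PFD). The members are protein-coding genes whose symbol is RAB, a number and at most 1 letter, with at least 100 counts summed over the 4 input libraries. Of 63 protein-coding genes with such a symbol, 49 passed this minimum and 14 did not (RAB3C, RAB3D, RAB4B, RAB6C, RAB6D, RAB9B, RAB19, RAB25, RAB33A, RAB37, RAB40A, RAB41, RAB42 and RAB44). RAB17, at 117 counts, lay just inside the minimum, and RAB9B, at 67, just outside. The deposited tables hold 60664 gene identifiers in all.

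Ribosomes shield a short stretch of mRNA from nuclease, and these footprints were sequenced from all ribosomes (input) and from those recovered through a tagged chaperone on the growing chain (pulldown). The cells were U-2 OS, a human osteosarcoma line, carrying a HaloTag on a single chaperone subunit. The TRiC line (genotype CCT4-Halo) was 1 monoclonal CRISPR knock-in with the tag in a loop of the TRiC subunit CCT4, and the PFD line (genotype PFDN4-Halo) carried it on the prefoldin subunit PFD4, so differences between the lines can also be differences between clones. All cells, inputs included, received the elongation inhibitor cycloheximide at 100 µg per ml for 1 min and then the crosslinker DSP at 2 mM for 30 min. Input and pulldown of both lines made up 4 groups of 2 biological replicates, so a p-value below measures the spread between those 2 samples. The 8 libraries held 9523128 to 32637658 counts. The mesenchymal markers VIM, SPARC, COL1A1 and FN1 each reached at least 1688 CPM (counts scaled to a common library total) in every input. CD44 lay at 143.1 to 925.6 CPM, RUNX2 at 41.4 to 59.6 and ALPL at 2.48 to 43.1, while COL1A2 reached at most 1.74 CPM. Of the markers of other cell types EPCAM lay at 8.59 to 18.2 CPM, above ALPL in the TRiC inputs (3.39 and 2.48 CPM). CDH1, PTPRC, PECAM1 and GFAP stayed at or below 1.21 CPM and CD3E and ALB were at 0. Replicates of the PFD pulldown stood further apart than those of any other group, with a chi-square per degree of freedom of 87.8 over genes against 13.7 to 33.2 in the other 3, and edgeR estimated a common dispersion of 0.331 for the PFD libraries and 0.0153 for the TRiC libraries.

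A Rab protein cycles between a GTP-bound form, which recruits effectors to a membrane, and a GDP-bound form, which a dissociation inhibitor extracts into the cytosol. Guanine nucleotide exchange factors (GEFs) switch a Rab on at its membrane, and GTPase-activating proteins (GAPs) switch it off. New Rab proteins are presented by the escort proteins CHM and CHML to a geranylgeranyl transferase, which attaches lipids to cysteines at the C terminus. TRiC is a ring-shaped chaperonin that folds proteins such as actin and tubulin in its chamber, and PFD delivers substrates to it.

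The Rab coding sequences were short and alike in length. They ran from 194 to 340 codons with a median of 215, against a median of 485 codons over the 12697 protein-coding genes with the same input minimum. The lipid-bearing cysteines lie at the very end of the chain, and all 49 members had at least 1 cysteine codon (TGT or TGC) among their last 5 codons. Of these, 40 had 2 and 9 had 1. The last 30 coding bases before the stop codon are shown, 5′ to 3′ with cysteine codons in capitals and with hg38 positions from the GENCODE 44 annotation, for members on which the results turn. They fall in the last coding exon of each gene and show where the chain ends when a ribosome has read the whole message.
RAB10, chr2:26134989-26135018, plus strand: ggcgtgacaggctggaagagcaaaTGCTGC
RAB7A, chr3:128813390-128813419, plus strand: gccaaggcctcggcagaaagcTGCagtTGC
RAB34, chr17:28714646-28714675, minus strand: gccagcaagaagaagcccacaTGTTGCcca
RAB32, chr6:146554573-146554602, plus strand: ttgagagcagagaacaaatcccagTGTTGC
RAB1A, chr2:65088496-65088525, minus strand: ccagtcaagcagtcaggtggaggtTGCTGC
RAB1B, chr11:66276206-66276235, plus strand: cctgtaaagccggctggcggtggcTGTTGC
RAB11B, chr19:8403526-8403555, plus strand: cccaacaagctgcagTGCTGCcagaacctg
RAB3B, chr1:51919930-51919959, minus strand: ccaccgctgctgcagcagaacTGCtcaTGC
RAB8A, chr19:16132272-16132301, plus strand: aggagcagctttttccgaTGTgttcttctg
RAB43, chr3:129091099-129091128, minus strand: gacatcggagaaggctggggcTGCgggTGC
RAB39A, chr11:107962340-107962369, plus strand: gcagtaaagcccaggaaagaaTGCttcTGC
RAB22A, chr20:58359671-58359700, plus strand: cagccttcagagccaaagcggagcTGCTGC
RAB14, chr9:121181399-121181428, minus strand: ccccaaccccagagagaaggcTGTggcTGC
RAB5A, chr3:19983791-19983820, plus strand: caaccaaccaggaatcagTGTTGTagtaac
RAB5B, chr12:55992180-55992209, plus strand: cagcagaacaagagccagTGTTGTagcaac
RAB26, chr16:2153389-2153418, plus strand: gagggtcgaggggcctccTGCTGCcgccct

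Among these, RAB10, RAB1A, RAB1B, RAB22A and RAB32 end in 2 adjacent cysteine codons, RAB7A, RAB3B, RAB14, RAB39A and RAB43 have 1 codon between them, and RAB8A has a single cysteine codon followed by 3 others. RAB5A, RAB5B, RAB11B, RAB26 and RAB34 have a cysteine pair followed by 1 to 3 other codons. Gene counts hold no position within a message, so nothing below says where along the chain a chaperone was bound.

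Footprint density differed widely between the members. It is given as CPM per kb of coding sequence and as the mean ± SD of the 4 inputs. RAB10, which acts in delivery to the plasma membrane, was highest at 394.5 ± 69.1. RAB1A, the GTPase of ER-to-Golgi traffic, followed at 310.8 ± 100.1, RAB7A, of late endosomes and lysosomes, at 294.4 ± 44.9, RAB34, needed for cilium formation, at 283.6 ± 51 and RAB11A, of recycling endosomes, at 274.3 ± 25.1. RAB10 exceeded RAB1A by less than the SD of RAB1A, and RAB1A, RAB7A, RAB34 and RAB11A each differed from the next in that order by less than the SD of either. These SDs span both lines, whose order differed: RAB10 was highest in both, but RAB1A followed it in the PFD inputs (mean 397.2) and ranked 5 in the TRiC inputs (224.3, after RAB34 at 326.4, RAB11A at 275.2 and RAB7A at 256.7). RAB2A of the Golgi (198.2 ± 46.7), RAB11B (178 ± 23.6) and RAB14, which works between Golgi and endosomes (155.7 ± 43.4), completed the 8 highest. The first 6 made up 50.2% of the summed density of the family. At the other end lay RAB3A, at 2.58 ± 0.38, and RAB27B, at 1.71 ± 1.92. The family took 0.209% and 0.215% of all counts in the TRiC inputs against 0.239% and 0.237% in the PFD inputs.

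**Figure D1:**
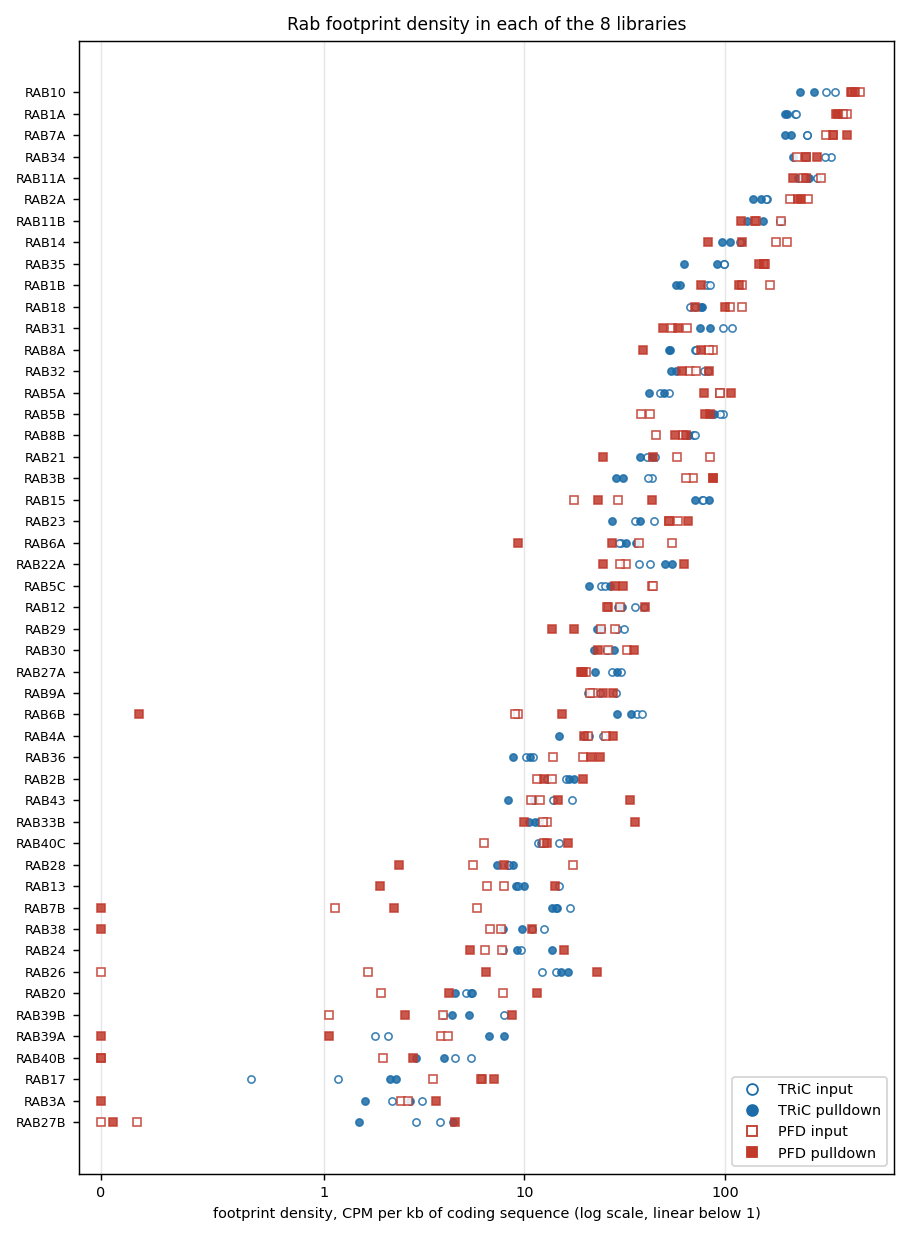
Footprint density of the 49 Rab genes in each of the 8 libraries, in CPM per kb of coding sequence on an axis that is logarithmic above 1 and linear below; open symbols are inputs, filled symbols pulldowns, circles the TRiC line and squares the PFD line. Genes are ordered by the mean of the 4 inputs, from RAB10 (394.5) to RAB27B (1.71); points at the left edge are libraries with 0 counts.

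Related members shared this output unequally. In the RAB5 group of early endosomes, RAB5A, RAB5B and RAB5C summed to a density of 169.2 and 172.7 in the TRiC inputs against 180.5 and 176.5 in the PFD inputs. RAB5A made up 29.3% of that sum in the TRiC inputs against 53.1% in the PFD inputs. RAB1A contributed 73% and 73.3% of the RAB1A and RAB1B sum in TRiC and PFD inputs, although the sum itself was 305.3 and 309.6 in the TRiC inputs against 528.3 and 555.9 in the PFD inputs. RAB6A, of Golgi-to-ER traffic, made up 44.4% of the RAB6A and RAB6B sum in the TRiC inputs against 83.4% in the PFD inputs. Only uniquely aligned reads were counted, and relatives share unequal parts of their coding sequence with other transcripts. Of its 30-base windows RAB6A shares 34.4%, RAB6B 0%, RAB5A 20.2%, RAB5B 0%, RAB5C 76%, RAB1A 7.81% and RAB1B 38%. The split between relatives is therefore uncertain. These sums were chosen after the values were seen and were not tested.

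On scaled counts, some Rab genes had lower values in ribosomes bound by TRiC than in total ribosomes, and 2 had higher values. The shares called were near those of protein-coding genes of like length. With edgeR's quasi-likelihood test and an adjusted p under 0.05, 11 of 49 members (22.4%) were lower in the TRiC pulldown than its input. Another 2 (4.08%) were higher. Of all genes tested, 10.6% were lower and 8.64% higher. Of protein-coding genes with coding lengths in the range of the Rab genes, 19% were lower and 3.13% higher. The median log2 fold change of the members was -0.16, and 41 of 49 (83.7%) lay below 0, whereas all 17934 genes tested had a median of -0.003 with 50.3% below 0. Protein-coding genes in the length range of the Rab genes had a median of -0.16 with 68.5% below 0. In 24 members both pulldown libraries lay below both inputs, a pattern that 31.2% of all genes showed, and in 7 they lay above both, against 29.3%. Of the 2943 protein-coding genes in the length range of the Rab genes, 1378 lay below both inputs in this way and 471 above. The family took 0.188% and 0.178% of the counts in the TRiC pulldowns.

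Each role group, with cilium and other sites taken as 1 group, held at least 1 lower member. By role, 12.5% to 33.3% of the members were lower, against 10.6% of all genes. Of protein-coding genes in the length range of the Rab genes, 19% were lower. Among the 10 Rabs of the ER and Golgi, 2 were lower. RAB1B, a close relative of RAB1A in ER-to-Golgi traffic, fell from 49.9 and 51.6 CPM in the inputs to 34.8 and 36.4 in the pulldowns (log2 fold change -0.51 ± 0.10, adjusted p = 0.0022, where ± gives the standard error). RAB43, which acts at the Golgi, fell from 11.1 and 8.95 to 7.17 and 5.32 CPM (-0.68 ± 0.22, adjusted p = 0.036), a call lost under DESeq2. For each gene both pulldown libraries lay below both inputs, as they did for 31.2% of all genes. RAB43 shares 85.7% of its 30-base coding windows with a readthrough transcript and a pseudogene and RAB1B shares 38% with RAB1C, and 43.8% of RAB1B exon bases lie under exons on the opposite strand, so their counts are uncertain. RAB1A itself stood at 139.1 and 139.9 CPM in the inputs against 123.7 and 127 in the pulldowns (-0.15 ± 0.08, adjusted p = 0.18).

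Endosomal Rabs moved in both directions. RAB31, of trans-Golgi to endosome transport, was lower, at 64.1 and 57.6 CPM in the inputs against 49.6 and 44.7 in the pulldowns (log2 fold change -0.37 ± 0.10, adjusted p = 0.017). Its relative RAB22A, which acts in endosomal recycling, was higher, at 24.8 and 21.9 CPM in the inputs against 29.6 and 32.1 in the pulldowns (0.40 ± 0.12, adjusted p = 0.030). The groups did not overlap for either gene, where 31.2% of all genes lay below without overlap and 29.3% above. RAB5A, RAB5B and RAB5C, the regulators of early endosome fusion, had log2 fold changes of -0.13, -0.15 and -0.04, none past the test. Among the 6 recycling Rabs, RAB11B was lower, at 126.1 and 124.8 CPM in the inputs against 102.5 and 85 in the pulldowns (-0.42 ± 0.09, adjusted p = 0.0048). RAB11A stood at 172.1 and 188.6 CPM in the inputs against 151.5 and 169.7 in the pulldowns (-0.17 ± 0.08, adjusted p = 0.17), and it passed with a replicate block (adjusted p = 0.042) and without the second pulldown (adjusted p = 0.037). The difference between these relatives was not tested.

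Late endosomal and lysosomal Rabs held 3 lower members and the highest rise. RAB32, of lysosome-related organelles and mitochondria, fell from 53.6 and 56.4 CPM to 38.9 and 36.7 (log2 fold change -0.54 ± 0.10, adjusted p = 0.0014). RAB7A fell from 161.4 and 161 to 133.9 and 125 CPM (-0.32 ± 0.08, adjusted p = 0.0094), and RAB12, which directs receptors to lysosomes, from 40.8 and 36.8 to 31.6 and 30.4 CPM (-0.32 ± 0.11, adjusted p = 0.048). RAB12 lost its call under DESeq2, library totals and cyclic loess, and RAB7A under cyclic loess. In each of the 3 genes the lowest input was above the highest pulldown, as in 31.2% of all genes. RAB39A, which acts in late endosomal and autophagic traffic, rose from 1.37 and 1.19 CPM to 4.38 and 5.24 (1.91 ± 0.34, adjusted p = 0.0011). That change was 3.75-fold, but on few reads: 38 and 36 counts in the inputs against 146 and 132 in the pulldowns. Its relative RAB39B had 70 and 154 counts in the inputs against 114 and 71 in the pulldowns (-0.29 ± 0.35, adjusted p = 0.62).

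Of the 9 secretory Rabs, 3 were lower and none higher. RAB3B, of regulated exocytosis, fell from 28.8 and 27.5 to 20.7 and 19.1 CPM (log2 fold change -0.50 ± 0.13, adjusted p = 0.0095). RAB8A, which serves exocytosis and the cilium, fell from 44.4 and 45.0 to 33.1 and 33.6 CPM (-0.42 ± 0.10, adjusted p = 0.0083). RAB10, the member with the densest footprints, fell from 215.9 and 193.8 to 169 and 143.7 CPM (-0.39 ± 0.09, adjusted p = 0.0055). Pulldown and input did not overlap in any of the 3, which the test had already picked, and 31.2% of all genes lay below in this way. For RAB8A 39.7% of exon bases lie under exons on the opposite strand, and RAB8B stood at 43.3 and 44.6 CPM in the inputs against 41.3 and 41.2 in the pulldowns (-0.09 ± 0.10, adjusted p = 0.57). Among the 6 Rabs of the cilium and other sites, RAB34 was lower, from 264.4 and 248.6 to 196.3 and 172.6 CPM (-0.47 ± 0.08, adjusted p = 0.00068).

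**Figure D2:**
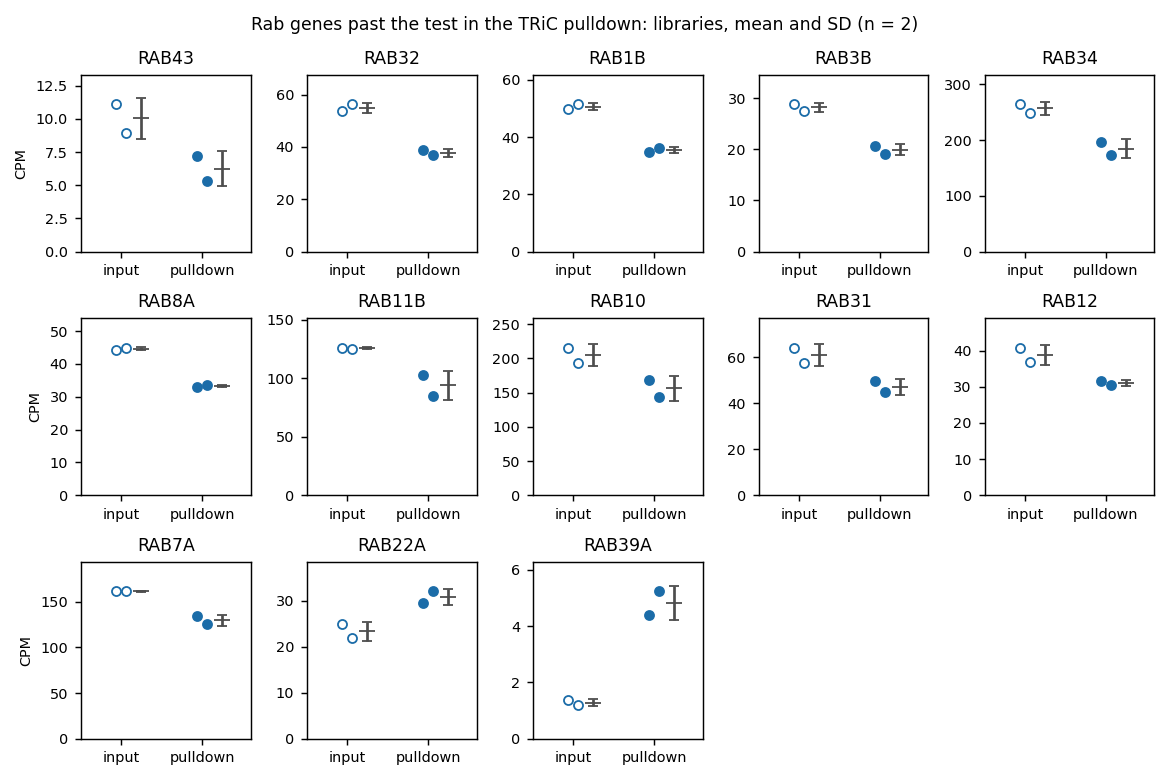
CPM of the 13 Rab genes past the test in the TRiC pulldown, with each axis starting at 0; open circles are the 2 input libraries, filled circles the 2 pulldown libraries, and bars the mean and SD. In the 11 genes from RAB43 to RAB7A both pulldowns lay below both inputs (31.2% of all genes), and in RAB22A and RAB39A above (29.3%).

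The remaining members ranged more widely where counts were few. With a mean of at least 100 counts the highest log2 fold changes after RAB22A were those of RAB24 (0.39 ± 0.25, adjusted p = 0.30), linked to autophagy, and RAB26 (0.25 ± 0.17, adjusted p = 0.34), of secretory granules. RAB40B, which serves a ubiquitin ligase, stood among the 3 lowest with -0.54 ± 0.31 (adjusted p = 0.25). All 30-base windows of RAB24 are shared with transcripts of MXD3. RAB17, a Rab of epithelial cells, had 12 and 23 counts in the inputs against 46 and 37 in the pulldowns (1.25 ± 0.62, adjusted p = 0.17). By role, the medians were -0.16 for the ER and Golgi (10 members), -0.11 for early endosomes (8), -0.20 for recycling (6), -0.31 for late endosomes and lysosomes (10), -0.28 for secretion (9) and -0.21 for cilium and other sites (6).

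Coding length moved with the enrichment by TRiC. Over 14611 protein-coding genes tested, the log2 fold change and the log2 coding length had a Spearman correlation of 0.35, a description across genes, which are not independent. The median log2 fold change climbed from -0.25 in the shortest of 10 groups of these genes by length to 0.20 in the longest. Protein-coding genes with coding lengths in the range of the Rab genes (2943 genes) had a median of -0.16, the same as the Rab genes to 2 decimals, and 68.5% of them lay below 0. Of those 2943, 560 (19%) were lower and 92 (3.13%) higher by the test. Of the 10 length groups, that of 184 to 259 codons had a median of -0.21. Within the 49 Rabs, which span little length, the correlation was 0.001. Members with a coding GC content over 50% held 7 of the 11 lower genes (25 members, median -0.29), and those at or below 50% held 4 and both higher genes (24 members, median -0.16). The part of length and GC content in the Rab values was not tested.

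**Figure D3:**
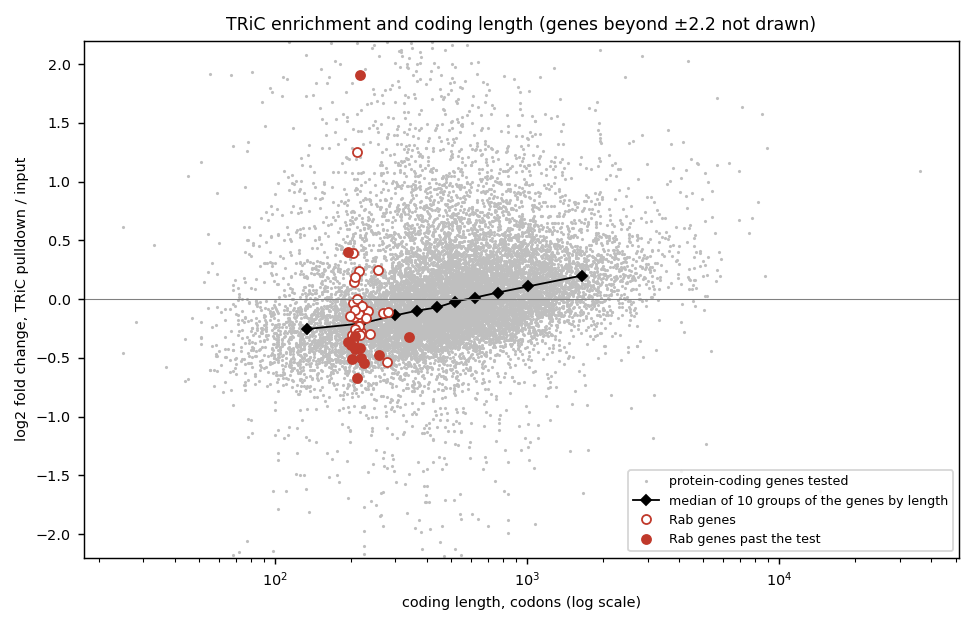
Log2 fold change of TRiC pulldown over input against coding length in codons (log scale) for protein-coding genes (grey), the medians of 10 groups of those genes by length (black, from -0.25 to 0.20) and Rab genes (red, filled where past the test). The Rab genes sit at 194 to 340 codons, where the medians of all protein-coding genes lie below 0.

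Fewer TRiC calls were made in some other fits. In a fit of all 8 libraries 0 members were lower and 0 higher, where 0.0796% of all genes were lower and 0.0849% higher. Against a change of at least 1.5-fold only RAB39A passed, as a higher call, where 0.914% of all genes were higher and 0.357% lower. Without the first TRiC input 4 members were lower (RAB1B, RAB11B, RAB32 and RAB34) and RAB39A was higher, where 3.76% of all genes were lower and 4.77% higher. RAB7A, RAB8A, RAB12 and RAB22A lost their calls without either TRiC input. RAB12, RAB22A, RAB31 and RAB43 lost theirs without the second TRiC pulldown. Among the 29 members with no exon overlap on the opposite strand 7 (24.1%) were lower and 2 (6.9%) higher. The main fit called 10.6% of all genes lower and 8.64% higher.

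PFD-bound ribosomes gave no Rab call. Of 49 members 48 could be tested (RAB27B had too few counts), and edgeR found 0 higher and 0 lower at an adjusted p under 0.05, where 0.0496% of all 14111 genes were higher and 0.191% lower. At an unadjusted p under 0.05 there were 5 members, against 6.93% of all genes. The median log2 fold change was 0.03 and 26 of 48 lay above 0. In 9 of the 49 members both pulldowns lay above both inputs (18.3% of all genes) and in 10 below (20.4%). In 12 the 2 pulldowns fell on opposite sides of the inputs, 8 of them with the first pulldown above. The share of all genes with that split was not counted.

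The 5 members at an unadjusted p under 0.05 were RAB14, RAB5B, RAB21, RAB26 and RAB6A. RAB14 had 129.2 and 115.5 CPM in the PFD inputs against 54.8 and 76.3 in the pulldowns (log2 fold change -0.90 ± 0.22, adjusted p = 0.44). RAB5B had 26.7 and 24.7 CPM in the inputs against 56.1 and 49.7 in the pulldowns (1.04 ± 0.27, adjusted p = 0.55). RAB21, which works in integrin uptake, had 55.5 and 38.9 CPM in the inputs against 17.0 and 28.5 in the pulldowns (-1.05 ± 0.37, adjusted p = 0.70). The 2 groups were apart for all 3 genes, where 20.4% of all genes lay below without overlap and 18.3% above. RAB6A had 22.7 and 34.0 CPM in the inputs against 5.93 and 16.5 in the pulldowns (-1.32 ± 0.56, adjusted p = 0.72), also apart. RAB26 had 24 and 0 counts in the PFD inputs against 168 and 136 in the PFD pulldowns, beside 309 and 288 in the TRiC inputs (PFD log2 fold change 4.11 ± 1.59, adjusted p = 0.71).

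Other ends of the PFD comparison lay in scattered libraries. RAB28, a ciliary Rab, had 11.3 and 3.66 CPM in the inputs against 1.62 and 5.09 in the pulldowns (log2 fold change -1.15 ± 1.07, adjusted p = 0.93), which overlapped. RAB33B, of the Golgi and autophagy, had 8.71 and 8.48 CPM in the inputs against 25.1 and 6.67 in the pulldowns (0.88 ± 0.71, adjusted p = 0.91). RAB43 had 7.42 and 6.85 CPM in the inputs against 22.0 and 9.02 in the pulldowns (1.11 ± 0.65, adjusted p = 0.83). In both of the last the first pulldown library held the high value. RAB3A, RAB7B, RAB38 and RAB39A were at 0 counts in that library. DESeq2 called 3 members, RAB26 and RAB5B higher and RAB14 lower, where it called 1.93% of the genes it gave an adjusted p higher and 2.22% lower. Without the first PFD pulldown 2 members passed edgeR's test (RAB1B and RAB14, both lower, where 1.66% of all genes were lower and 0.688% higher). Without the second 11 did (5 higher, 6 lower), where 7% of all genes were higher and 8.76% lower, and of the 11 RAB14 alone also passed without the first.

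**Figure D4:**
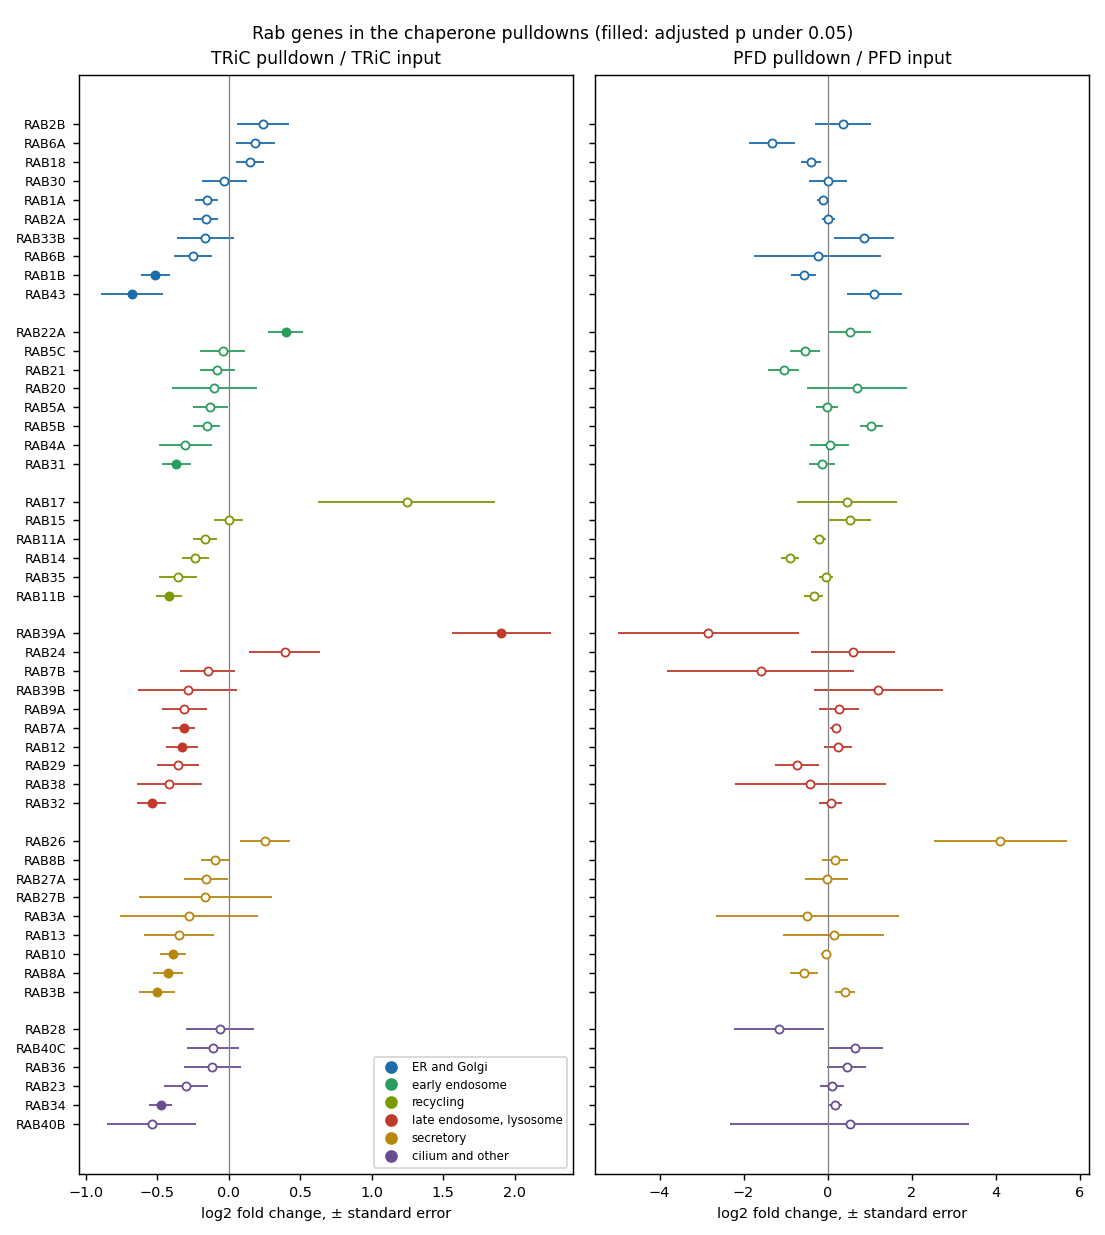
Log2 fold change of pulldown over input for the 49 Rab genes in the TRiC line (left) and 48 in the PFD line (right), grouped by traffic step, with standard errors from edgeR; filled points passed an adjusted p under 0.05 and the axes differ in range. In the TRiC panel 13 points are filled and 41 lie below 0, and in the PFD panel none is filled and errors of low-count genes reach beyond 2 log2 units.

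The difference between the 2 enrichments was tested as an interaction over all 8 libraries. No member differed at an adjusted p under 0.05 (0 of 49, against 0.0371% of all 18855 genes), and 10 had an unadjusted p under 0.05, against 14.8%. The median of TRiC enrichment minus PFD enrichment was -0.17 on the log2 scale. RAB5B had the lowest p, with a difference of -1.18 ± 0.20 (adjusted p = 0.12), and RAB34 (-0.65 ± 0.15), RAB3B (-0.89 ± 0.23) and RAB7A (-0.50 ± 0.15) had adjusted p of 0.17, 0.19 and 0.23. RAB39A had a difference of 4.67 ± 1.77 (adjusted p = 0.30), its PFD values being 47 and 28 counts in the inputs against 0 and 19 in the pulldowns. By DESeq2 these 5 genes passed, 1 higher and 4 lower, against 3.02% and 3.36% of the genes it gave an adjusted p. The members past the test with TRiC are therefore not shown to differ from PFD by edgeR. Without the second PFD pulldown 10 members were higher and 8 lower, where 11.6% of all genes were higher and 6.73% lower. Without the first 1 was higher and 3 lower, where 2.93% of all genes were higher and 2.69% lower.

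Total ribosomes of the 2 lines carried different amounts of individual Rab footprints. In the PFD inputs 12 members were higher than in the TRiC inputs (24.5% of 49, against 17.7% of all 16341 genes) and 7 were lower (14.3%, against 22.6%). The 7 include RAB26 and RAB27B, whose difference was built into their selection. Without the 5 members under 50 counts in the inputs of 1 line, 12 of 44 (27.3%) were higher and 5 (11.4%) lower. The median log2 difference was -0.10 over the members and -0.11 over all genes. Line, clone and library preparation cannot be told apart here, nor can fewer cells with a message and less message per cell. Markers also differed between these inputs: 5 of 8 mesenchymal markers were higher and 1 lower in the PFD inputs, with log2 differences of 2.85 for FN1, 2.62 for CD44 and 3.87 for ALPL, and their part in the Rab differences was not tested. By role, 4 of 10 ER and Golgi Rabs were higher and 1 lower (median 0.36), and 3 of 8 early endosomal Rabs were higher and 2 lower (median -0.03). RAB5A had 30.5 and 33.9 CPM in the TRiC inputs against 61.1 and 60.7 in the PFD inputs (log2 difference 0.92 ± 0.12, adjusted p = 0.0033). RAB1A had 137 and 138 against 248.9 and 238.1 CPM (0.82 ± 0.07, adjusted p = 0.0007), and RAB1B 49.1 and 50.9 against 73.3 and 100.9 CPM (0.80 ± 0.17, adjusted p = 0.016). The lines did not overlap for any of them. Over all 16341 genes, 5230 lay higher without overlap in the PFD inputs and 6825 lower.

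RAB5C, RAB18 and RAB21 were also higher in the PFD inputs. RAB5C rose from 15.5 and 16.3 to 27.8 and 28.3 CPM (0.82 ± 0.16, adjusted p = 0.013), with 76% of its windows shared with other transcripts. RAB18, of lipid droplets and the ER, went from 41.4 and 43.5 to 65.2 and 74.8 CPM (0.72 ± 0.12, adjusted p = 0.0075), and RAB21 from 27.5 and 30.0 to 56.7 and 38.8 CPM (0.74 ± 0.21, adjusted p = 0.036). The other 6 higher members were RAB14, RAB35, RAB3B, RAB2A, RAB10 and RAB7A, with log2 differences of 0.37 to 0.69.

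Among the 7 lower members RAB5B went against its relatives RAB5A and RAB5C, with 62.9 and 61.0 CPM in the TRiC inputs against 27.3 and 24.6 in the PFD inputs (log2 difference -1.25 ± 0.12, adjusted p = 0.0013). RAB6B, the RAB6 form known from neurons, had 22.6 and 24.0 against 5.77 and 5.58 CPM (-2.04 ± 0.21, adjusted p = 0.0016). RAB15, of recycling endosomes, had 48.8 and 49.2 against 18.6 and 11.3 CPM (-1.69 ± 0.25, adjusted p = 0.0049). All 3 were separated without overlap, as were 6825 of all 16341 genes in this direction. RAB31 had 63.2 and 56.9 against 31.6 and 37.5 CPM (-0.80 ± 0.14, adjusted p = 0.0091), and RAB34 had a log2 difference of -0.44. RAB26 had 309 and 288 counts against 24 and 0, and RAB27B, of exosome and granule release, had 53 and 76 counts against 2 and 0. Both met the input minimum through the TRiC inputs, so a difference was built into their selection and no fold or test is given for them. In 5 members (these 2, RAB3A, RAB17 and RAB40B) the inputs of 1 line held fewer than 50 counts. Of the other 44 members 12 were higher (27.3%, against 17.7% of all genes) and 5 lower (11.4%, against 22.6%).

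Without the first PFD input 15 members were higher and 17 lower, where 23.8% of all genes were higher and 34.7% lower. Without the second 16 were higher and 15 lower, where 24.9% and 33.8% of all genes were. Without the second TRiC input 7 members were higher instead of 12, where 10.6% of all genes were higher. RAB21 and RAB5C lost their calls without either TRiC input and in a fit of all 8 libraries, RAB3B and RAB7A without either TRiC input, and RAB6B in the fit of all 8 libraries. Against a change of at least 1.5-fold 2 were higher and 4 lower, where 7.24% of all genes were higher and 12.5% lower. RAB27B, whose difference was built into its selection, was among the 4.

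The regulators of Rabs were described from lists chosen with earlier results known. In the TRiC pulldown 10 of 48 Rab GEFs were higher and 3 lower (median log2 fold change 0.08), from SBF2 (0.51 ± 0.10, adjusted p = 0.0020) to MON1A, of the RAB7 exchange factor (-0.72 ± 0.21, adjusted p = 0.026). Of 34 GAPs 3 were higher and 0 lower (median 0.05), the highest being SGSM2 (0.60 ± 0.10, adjusted p = 0.0006). Of 37 effectors tested 6 were higher and 2 lower (median 0.11), from RBSN, a RAB4 and RAB5 effector of endosomes (1.43 ± 0.40, adjusted p = 0.017), to PLIN3, a lipid droplet protein known as a RAB9 effector (-0.44 ± 0.08, adjusted p = 0.0012). By list, 20.8% of GEFs, 8.82% of GAPs and 16.2% of effectors were higher, against 8.64% of all genes. Lower calls were 6.25%, 0% and 5.41%, against 10.6%. The GEFs and effectors thus held more higher calls than lower ones, while the Rabs held more lower ones. Enrichment by TRiC moved with coding length, whose part in these lists was not tested.

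Factors that prenylate and recycle Rabs moved in both directions. RABGGTB, the catalytic subunit of the geranylgeranyl transferase, was higher in the TRiC pulldown (log2 fold change 0.41 ± 0.10, adjusted p = 0.0075). GDI2, a dissociation inhibitor, was lower (-0.21 ± 0.07, adjusted p = 0.043), as was RABAC1, a Rab acceptor of the Golgi (-0.73 ± 0.14, adjusted p = 0.0018). The escort proteins CHM (0.07 ± 0.11) and CHML (0.03 ± 0.12), RABGGTA (-0.24 ± 0.13) and RABIF (-0.39 ± 0.15) did not pass.

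Other small GTPases had more lower than higher calls as well. In the TRiC pulldown 3 of 16 Ras family genes (18.8%) were lower and 0 higher (median -0.19). RRAS was lowest (-0.67 ± 0.10, adjusted p = 0.0004). Of 24 Arf, Sar and Ran family genes 7 (29.2%) were lower and 0 higher (median -0.12). Shares over all genes were 10.6% lower and 8.64% higher. In protein-coding genes in the length range of the Rab genes they were 19% and 3.13%. The part of coding length in these families was not tested. No gene reported here from the GTPase or regulator lists passed the test in the PFD pulldown.

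**Figure D5:**
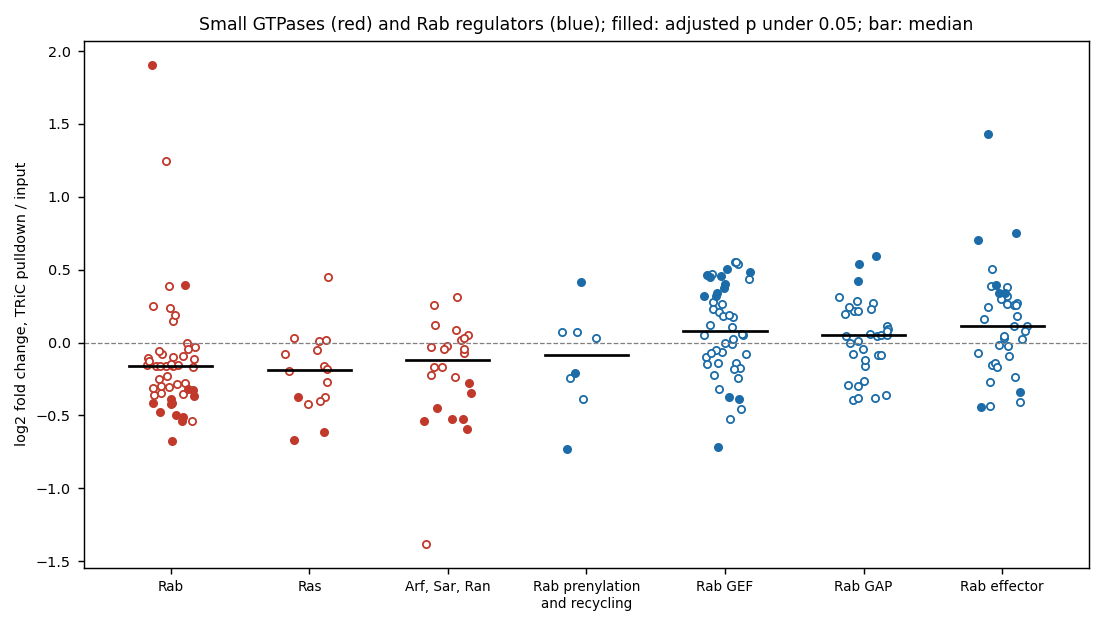
Log2 fold change of TRiC pulldown over input for each gene of 3 small GTPase families (red) and 4 lists of Rab regulators (blue); filled points passed an adjusted p under 0.05, bars are list medians and the dashed line is the median of all genes tested (-0.003). The medians of the GTPase families run from -0.19 (Ras) to -0.12 (Arf, Sar and Ran), and those of GEFs, GAPs and effectors from 0.05 to 0.11.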

How the data were processed

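The deposited values were raw whole-number counts per gene, with 1 table for each line. Per the labels and the study's methods, the authors removed PCR duplicates by molecular identifiers with UMI-tools, discarded non-coding RNA with Bowtie2 2.4.2 and counted uniquely aligned reads per gene with STAR 2.7.10a on hg38. The annotation release and the strand setting of the counting are not given in the sources used here, and reads of overlapping genes on opposite strands may be mixed. Names, positions and coding lengths came from GENCODE 44 (60463 of 60664 identifiers matched).

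Pulldown and input, the interaction and the inputs were compared with edgeR 4.0.16 in R 4.3.3 (TMM, filterByExpr, glmQLFit, glmQLFTest, Benjamini-Hochberg adjustment over all genes, threshold 0.05). CPM used TMM-scaled totals. Fits were tested on simulated data. Alternatives were DESeq2 1.42.0, library totals, cyclic loess with limma 3.58.1, no filter, at least 100 counts in every library, a 1.5-fold threshold, a replicate block, a joint fit of the 8 libraries, and the removal of single libraries.

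Members and lists were chosen with earlier results of these data known. Genes named were called members (the 6 highest and 6 lowest where over 12 were called), the 8 densest, the 3 highest and 3 lowest with a mean of at least 100 counts in each pulldown, and the highest and lowest called gene of each list. Other members were named after their values were seen. Some genes of these lists and 1 list are not reported here. Same-numbered replicates did not deviate together (correlation 0.0565 in the TRiC, -0.0115 in the PFD libraries and 0.0461 in the inputs). No replicates of a group were identical.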

Additional observations from a re-analysis of the deposited data

How the results depend on the processing

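The numbers of Rab calls with TRiC (11 lower, 2 higher) changed by less than 1.5 times under DESeq2, library totals, cyclic loess, no filter and a replicate block, but RAB12 was lost under the first 3 of these, RAB43 under DESeq2 and RAB7A under cyclic loess. The count of higher members was 1 with at least 100 counts in every library, and 1 higher and 0 lower remained against a 1.5-fold change. All 8 libraries in one fit gave 0 and 0. Leaving out 1 library gave 1 to 3 higher, 4 to 13 lower, and a median of -0.22 to -0.18. The median was -0.12 with library totals, -0.20 with cyclic loess and -0.10 with at least 100 counts. For PFD, 0 higher and 0 lower became 2 and 1 with DESeq2, 0 and 1 with no filter, and 1 and 0 with all 8 libraries; leaving out 1 library gave 0 to 5 higher, 0 to 6 lower and a median of -0.069 to 0.030. RAB33B was -0.37 without the first PFD pulldown. For the difference, DESeq2 gave 1 higher and 4 lower and no filter 3 lower, and leaving out 1 library 0 to 10 higher and 0 to 8 lower. For the inputs, a 1.5-fold threshold gave 2 higher and 4 lower, leaving out 1 library 7 to 16 higher and 6 to 17 lower, and at least 100 counts a median of 0.12. The causes of these shifts were not tested. With the replicate block 14 members were lower and 2 higher with TRiC, 1 was lower and 0 higher with PFD (RAB14), 0 differed between the pulldowns, and 12 were higher and 7 lower in the inputs, where RAB27B was lost and RAB7B gained; RAB11A, RAB14 and RAB35 were gained with TRiC. The numbers are not known to pair the samples. Depth limits members under 10 counts, of which the PFD libraries held 2 to 5 each.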

Other observations

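Subunits of the TRAPP complexes, which act as exchange factors for RAB1 and RAB11, had calls in both directions in the TRiC pulldown. Of 14 subunits tested 3 were higher, 2 were lower and 9 did not pass (log2 fold changes of -0.52 to 0.44 for the 9). Of all genes 8.64% were higher and 10.6% lower. TRAPPC8, TRAPPC9 and TRAPPC10 were higher, with log2 fold changes of 0.40 ± 0.11, 0.32 ± 0.09 and 0.37 ± 0.09 and adjusted p of 0.015, 0.018 and 0.010 by edgeR. TRAPPC1 and TRAPPC2L were lower, at -0.37 ± 0.10 and -0.39 ± 0.10, with adjusted p of 0.017 and 0.015. The 5 were named after their values were seen. Enrichment by TRiC moved with coding length across genes, and the part of length in these subunits was not tested.

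Small membrane-trafficking GTPases outside the Rab family included ARF1, ARF5 and ARF6, which recruit coats and remodel membranes. They were lower with TRiC by -0.45 ± 0.08, -0.52 ± 0.09 and -0.35 ± 0.10 on the log2 scale (adjusted p = 0.0012, 0.0005 and 0.021 by edgeR), and they too were picked after their values were seen.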
